A study of Rattus norvegicus with 15 samples.

Results

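The genes described here make, convert or remove superoxide and hydrogen peroxide: the superoxide dismutases Sod1, Sod2 and Sod3, catalase (Cat), the quinone reductase Nqo1, and Cyba, Cybb and Nox4 of the NADPH oxidases. They were chosen by name, and a probe set, the group of probes that an Affymetrix array carries against 1 transcript, was taken where the platform annotation named 1 of these 8 genes and no other. That gave 8 of the 14217 genes so named, with 10 of the 31099 probe sets in the table, 2 each for Cyba and Cybb and 1 for each other gene. Epididymal fat, the fat pad beside the testis, came from male Long-Evans rats raised from weaning either on a high fat, high sucrose diet (the diet-induced obese group, 7 rats) or on regular chow (the lean group, 8 rats). All rats, in both groups, were 14 weeks old on arrival and 21 weeks old at a glucose test. They were fed and 26 weeks old when killed. Each rat gave 1 RAE230_2 array, and diet and obesity cannot be told apart in this design. Values are MAS5 signals, a linear brightness scaled to the same trimmed mean on every array.

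A phagocyte NADPH oxidase passes electrons from NADPH to oxygen across a membrane and so makes superoxide. Superoxide dismutases turn superoxide into hydrogen peroxide, in the cytosol (Sod1, copper and zinc), in the mitochondrial matrix (Sod2, manganese) and outside the cell (Sod3, copper and zinc), and catalase splits hydrogen peroxide in peroxisomes. In fat, macrophages carry the phagocyte oxidase, while fat cells and vessel cells are known for Nox4, which releases hydrogen peroxide.

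Obese rat 1 and lean rat 7 gave nearly the same array, with a Pearson correlation of 0.978 over 31042 probe sets against 0.908 to 0.957 for the other 104 pairs of arrays. The labels do not settle whether either array belongs to the other group, which leaves the 15-array values and the results that drop 1 of these rats in doubt. Results are therefore given with all 15 arrays and without this pair, which leaves 6 obese and 7 lean rats. Even so, the 2 arrays were not alike at Cyba, where obese rat 1 had a signal of 4505.7 and lean rat 7 had 3220.4. That difference of 0.47 on the log2 scale was larger than those of 95.8% of the 18625 probe sets above the filter on low signals, whose median was 0.09. At Cybb obese rat 1 was also the higher of the 2. The difference was 0.22 for probe set 1369181_at, larger than those of 79.9% of these probe sets. For 1379344_at it was 0.08, larger than those of 44.6%. At the dismutases, Cat and Nqo1 the differences lay between -0.02 and 0.04 on that scale. Of 12 fat cell markers, each at its brightest probe set, 12 lay above the filter, as did 18625 of all 31042 probe sets. The same held for every macrophage, progenitor, endothelial and mesothelial marker with a probe set, so this does not check the tissue label.

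No member passed the test in either comparison, but obese fat had higher mean signals of Cybb and Cyba, the membrane subunits of the phagocyte oxidase, and of Sod2 than lean fat, and close to equal means of Sod3, Cat and Nqo1. Without the near-identical pair the difference on the log2(signal + 80.2) scale was 0.68 ± 0.19 (SE) for Cybb, 0.58 ± 0.15 for Cyba, 0.49 ± 0.14 for Sod2 and 0.26 ± 0.10 for Sod1. It was 0.10 ± 0.12 for Cat, 0.06 ± 0.10 for Nqo1 and -0.05 ± 0.17 (SE) for Sod3. Of the 8 member probe sets above the filter, limma called 0 at an adjusted p of 0.05 with 15 arrays, where it called 0% of all probe sets, and 0 with 13 arrays, where it called 1.01%. At an unadjusted p under 0.05 the members' count was 5 of 8 in each comparison, against 15.6% of all probe sets with 15 arrays and 17.8% with 13. A positive difference was found for 7 of the 8, against 42.5% and 42.2% of all probe sets. The median difference of the 8 was 0.29 with 15 arrays and 0.32 with 13, while that of all 18625 was -0.04 in both. These genes were chosen with results of these arrays known, so their counts describe them and are not independent evidence. In a whole fat pad, a change in the number of cells of a type and a change in RNA per cell cannot be told apart.

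**Figure D1:**
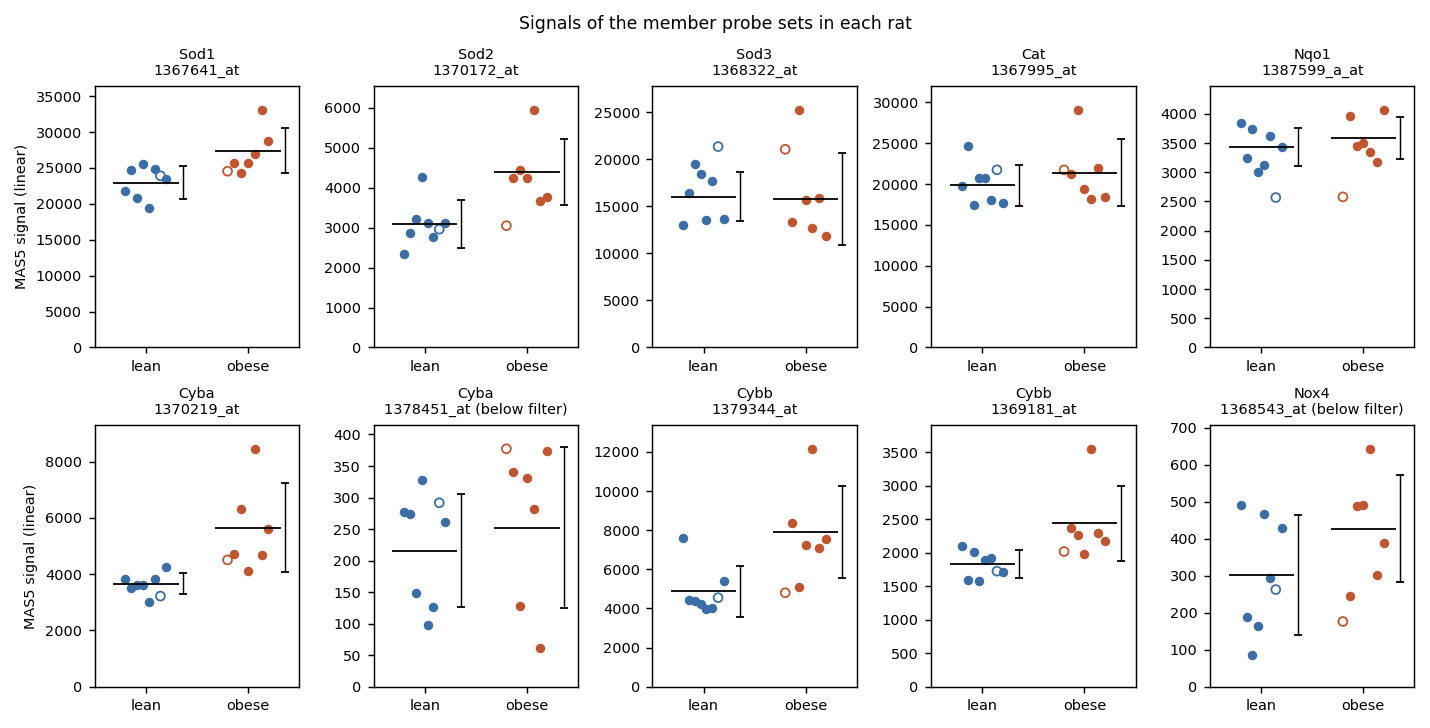
Signal of each of the 10 member probe sets (y axis, MAS5 signal, linear, from 0) in each lean and obese rat (x axis). Each point is a rat, open points are obese rat 1 and lean rat 7, and the bar and whisker are the mean and SD of the other rats. Obese rat 6 is the highest obese point for Cyba 1370219_at, both Cybb probe sets and Sod2, and the groups overlap in every panel.

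**Figure D2:**
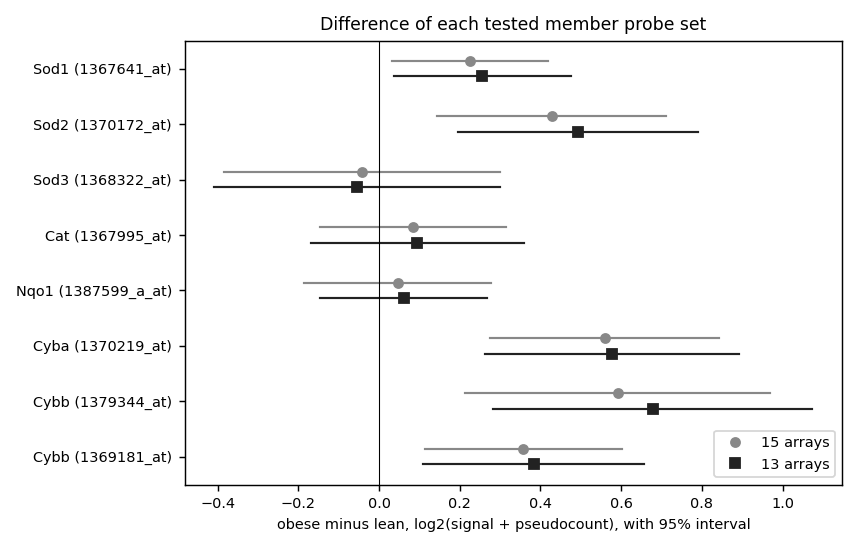
Difference between obese and lean rats for the 8 tested member probe sets (x axis, log2(signal + 80.2), obese minus lean), with 95% intervals from limma that are not adjusted for the number of probe sets. Circles are 15 arrays and squares 13 arrays. The intervals of both Cybb probe sets, Cyba, Sod2 and Sod1 lie above 0, and those of Sod3, Cat and Nqo1 span it.

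Cybb encodes gp91-phox (Nox2), the catalytic subunit that carries the electrons. The brighter of its 2 probe sets, 1379344_at, had a lowest, median and highest signal of 5096, 7392.6 and 12156.4 in 6 obese rats. The same values in 7 lean rats were 3997.9, 4377.3 and 7608.3. The highest obese signal was that of rat 6 and the lowest that of rat 3. The groups overlapped: lean rat 1, at 7608.3, lay above 4 of the 6 obese rats, lean rat 8, at 5399.1, lay above obese rat 3, and 2 obese rats lay above every lean rat. The mean signal of 7910 ± 2343 (SD, n = 6) in the obese group stood against 4870 ± 1296 (SD, n = 7) in the lean group, a fold of 1.60 on the log2(signal + 80.2) scale (limma adjusted p = 0.092). Without obese rat 3 or without lean rat 1 it passed, at 0.79 in each case (limma adjusted p = 0.0423 and 0.0452), and over all alternatives run the adjusted p went from 0.0423 to 0.316. With 15 arrays the difference was 0.59 ± 0.18 (SE; limma adjusted p = 0.153), and obese rat 1, at 4803.4, lay within the lean range.

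The other Cybb probe set, 1369181_at, was dimmer and showed the same direction with a smaller difference. Its lowest, median and highest signals were 1981.4, 2277.7 and 3551.6 in 6 obese rats, and 1583.6, 1891.4 and 2094.7 in 7 lean rats. Here 5 of the 6 obese rats lay above every lean rat, with rat 6 far above the rest and rat 5 inside the lean range. The difference was 0.38 ± 0.13 (SE; limma adjusted p = 0.144) with 13 arrays and 0.36 ± 0.12 (SE; limma adjusted p = 0.164) with 15. Across rats, the deviations of the 2 probe sets from their group means had a Pearson correlation of 0.624 over 13 arrays, given as a description.

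Cyba encodes p22-phox, the small membrane partner that Nox2 and Nox4 both need. Probe set 1370219_at had a lowest, median and highest signal of 4106.4, 5158 and 8451.6 in 6 obese rats. In 7 lean rats these were 3018.1, 3630.5 and 4251.2. The lean rats lay close together, and the 6 obese rats spread upwards from just inside the lean range, 5 of them above every lean rat. Only obese rat 5, at 4106.4, lay below a lean rat, the highest of that group being lean rat 8. The obese mean was 5642 ± 1580 (SD, n = 6) and the lean mean 3664 ± 373 (SD, n = 7), a fold of 1.49 on the log2(signal + 80.2) scale (limma adjusted p = 0.0747). With all 15 arrays 6 of 7 obese rats lay above all 8 lean rats, and the difference was 0.56 ± 0.13 (SE; limma adjusted p = 0.103). By p, Cyba ranked 114th among 18625 probe sets with 15 arrays and 339th with 13. Groups without overlap were found for 0 of 8 member probe sets in both comparisons, against 0.193% of all probe sets with 15 arrays and 1.45% with 13.

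The call for Cyba depended on the setting. Leaving out obese rat 1 alone, which keeps lean rat 7, gave a difference of 0.60 ± 0.14 (SE; limma adjusted p = 0.0476), the lowest of the adjusted p from 0.0476 to 0.349 that the alternatives to the 15-array fit gave. With 13 arrays it passed under 3 alternatives and ran from 0.0375 to 0.229. Without obese rat 6, the difference in the 13-array fit was 0.45 for Cyba, 0.55 for Cybb 1379344_at, 0.27 for Cybb 1369181_at and 0.40 for Sod2. A second Cyba probe set, 1378451_at, lay below the filter, with mean signals of 252.5 ± 127.6 (SD, n = 6) in the obese group and 215.8 ± 89.7 (SD, n = 7) in the lean group. In a fit without a filter its difference was 0.11 ± 0.30 (SE; limma adjusted p = 0.892).

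Nox4 (1368543_at) encodes the oxidase that is active without the cytosolic subunits of the phagocyte enzyme. It lay below the filter, at the 27.1th percentile of mean signals. Signals ran from 245.2 to 643.4 with a median of 439.2 in 6 obese rats, and from 85.7 to 490.9 with a median of 293.8 in 7 lean rats. The ranges overlapped over most of their width, with obese rat 6 again the highest. In a fit without a filter the difference was 0.48 ± 0.30 (SE; limma adjusted p = 0.497) with 13 arrays and 0.35 ± 0.28 (SE; limma adjusted p = 0.645) with 15, so no difference was detectable at this brightness.

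The 3 genes with the largest differences have start regions of different make-up. The 250 bases before the annotated start are shown 5′ to 3′ on the gene's strand, from RefSeq on the GRCr8 build, to let the base composition of the oxidase subunits and Sod2 be compared. The regions are chrX:16065066-16065315 on the minus strand for Cybb, chr19:67404215-67404464 on the minus strand for Cyba and chr1:50050169-50050418 on the minus strand for Sod2. Capitals mark matches, on either strand, to the core of the site for the myeloid factor PU.1 (GAGGAA), to the GC box (GGGCGG) and to the core of the antioxidant response element (TGACNNNGC).
Cybb: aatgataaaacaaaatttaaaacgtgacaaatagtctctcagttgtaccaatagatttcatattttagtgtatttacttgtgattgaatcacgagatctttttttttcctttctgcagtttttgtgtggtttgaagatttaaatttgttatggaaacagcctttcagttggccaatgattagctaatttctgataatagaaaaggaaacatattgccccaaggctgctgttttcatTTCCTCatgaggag
Cyba: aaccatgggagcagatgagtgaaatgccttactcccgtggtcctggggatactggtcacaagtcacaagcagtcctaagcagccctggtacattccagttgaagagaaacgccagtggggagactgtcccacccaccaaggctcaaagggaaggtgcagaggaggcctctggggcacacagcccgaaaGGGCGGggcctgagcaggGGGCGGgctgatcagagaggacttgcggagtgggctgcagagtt
Sod2: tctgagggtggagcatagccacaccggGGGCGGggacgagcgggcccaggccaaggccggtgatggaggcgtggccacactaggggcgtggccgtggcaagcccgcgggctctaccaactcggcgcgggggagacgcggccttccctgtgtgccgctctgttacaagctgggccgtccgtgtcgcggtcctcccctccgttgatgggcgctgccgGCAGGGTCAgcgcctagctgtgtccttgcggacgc
The Cybb region is rich in A and T, with 32% G and C and 2 CpG sites, and held 1 PU.1 core 14 bases before the start. The Cyba region had 59.6% G and C and held 2 GC boxes, 62 and 44 bases before the start. The Sod2 region had 71.6% G and C and 26 CpG sites, and held 1 GC box and 1 antioxidant response element core, the latter 35 bases before the start. In 33465 such regions of the rat table, where the median was 51.2% G and C, a PU.1 core was found in 23.3%, a GC box in 30.5% and an antioxidant response element core in 10.1%. Of the members, 7 matched this table, Sod3 being the exception, and Sod2 was the 1 of the 7 with the antioxidant response element core in this window. Cat also held a PU.1 core, 200 bases before the start, and Sod1, Nqo1 and Nox4 also held GC boxes. A match is a string of letters and was not tested as a binding site.

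Sod2 is the manganese enzyme of the mitochondrial matrix. Its probe set, 1370172_at, had a lowest, median and highest signal of 3659.6, 4249.2 and 5961.7 in 6 obese rats. In 7 lean rats these were 2338.6, 3106.3 and 4273.1. All 6 obese rats lay above 6 of the 7 lean rats, and the overlap came from lean rat 4, at 4273.1, which lay above 4 of the obese rats. The obese mean was 4389 ± 827 (SD, n = 6) and the lean mean 3100 ± 595 (SD, n = 7), a fold of 1.41 on the log2(signal + 80.2) scale (limma adjusted p = 0.0974). With 15 arrays the difference was 0.43 ± 0.13 (SE; limma adjusted p = 0.161), and obese rat 1, at 3051.6, lay among the lean rats.

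Sod1 (1367641_at), the copper and zinc enzyme of the cytosol, had bright signals and a small difference. Its signals ran from 24300 to 33142.6 in 6 obese rats, with a median of 26336.7, and from 19388.3 to 25524.7 in 7 lean rats, with a median of 23444. Of the obese rats, 5 lay above every lean rat, and rat 3 was the exception. The difference was 0.26 ± 0.10 (SE; 95% interval 0.04 to 0.48; limma adjusted p = 0.214) with 13 arrays and 0.23 ± 0.09 (SE; limma adjusted p = 0.251) with 15. Quantile normalization between arrays brought it to 0.14 and 0.13, and median centring to 0.37 and 0.33, none of which passed.

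Sod3 (1368322_at), the secreted form that binds to the matrix and to vessel walls, spread widely within the obese group. Its signals ran from 11866.9 in obese rat 8 to 25316.2 in obese rat 3, and from 13054.4 to 19486.6 in 7 lean rats. The lean range lay inside the obese range, with 1 obese rat above and 2 below every lean rat. The difference was -0.05 ± 0.17 (SE; 95% interval -0.41 to 0.30; limma adjusted p = 0.894) with 13 arrays and -0.04 ± 0.16 (SE; limma adjusted p = 0.923) with 15. Its sign turned with median centring, with the RNA quality covariate and when single rats were left out, so no direction is given.

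Catalase (1367995_at) had signals from 18122.7 to 29135 in 6 obese rats and from 17494 to 24613.4 in 7 lean rats, with medians of 20329.8 and 19726. Obese rat 3 was the highest of all, and the next obese rat of the 6, at 21973.2, lay below lean rat 2, the highest lean rat. The difference was 0.10 ± 0.12 (SE; 95% interval -0.17 to 0.36; limma adjusted p = 0.728) with 13 arrays, and quantile normalization turned its sign. It rested on obese rat 3: without that rat the difference was 0.0022 with 13 arrays and 0.0075 with 15, where it had been 0.08. Nqo1 (1387599_a_at), which reduces quinones with NADPH or NADH and is a standard target of the transcription factor NRF2, had signals from 3175.5 to 4073.9 in 6 obese rats and from 2996.6 to 3850.3 in 7 lean rats, with medians of 3477 and 3435.2. The lowest Nqo1 signals of all were those of the near-identical pair, at 2577.7 and 2566.4. The difference was 0.06 ± 0.10 (SE; 95% interval -0.15 to 0.27; limma adjusted p = 0.785) with 13 arrays and 0.05 ± 0.11 (SE; limma adjusted p = 0.874) with 15, where its sign turned with the RNA quality covariate and without lean rat 7.

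A measure of RNA quality also stood apart between the groups, short of the threshold. The log2 ratio of 3 prime to 5 prime Gapdh signal, which is higher in degraded RNA, averaged 0.72 ± 0.28 (SD, n = 6) for the obese rats and 1.05 ± 0.28 (SD, n = 7) for the lean rats (exact two-sided permutation p = 0.0589). With that ratio as a covariate in the 13-array fit the difference was 0.49 for Cybb 1379344_at, 0.34 for Cybb 1369181_at, 0.51 for Cyba, 0.57 for Sod2 and 0.23 for Sod1 (limma adjusted p = 0.316, 0.341, 0.229, 0.173 and 0.417). All 5 stayed positive, and none passed.

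Macrophage markers were higher in obese fat, as were the mean signals of Cybb and Cyba. Of 25 listed markers 23 were tested and all 23 had positive differences with 13 arrays, with a median of 0.48. Limma called 6 of them higher (Cd68, Tyrobp, Laptm5, Lgals3, Gpnmb and Fcer1g), against 0.725% of all probe sets, and 0 with 15 arrays. Their summed signal ran from 249621 to 490459.9 in 6 obese rats and from 161727.7 to 242510 in 7 lean rats, while obese rat 1 had 199249.4. Obese rat 6 had the highest sum and lean rat 1 the highest lean sum, and these were also the rats with the highest Cybb signal in their groups. Neutrophils and B cells also carry the phagocyte oxidase. Of the 6 neutrophil markers with a probe set 1 lay above the filter, Mmp8, at -0.39 ± 0.22 (SE; limma adjusted p = 0.353), and below it S100a8 had a mean signal of 55.0 in obese and 125 in lean rats. Of 3 B cell markers with a probe set, Ms4a1 alone lay above it, at -0.38 (limma adjusted p = 0.12). For red blood cells, which are rich in catalase and Sod1, all 3 tested markers had positive differences, of which 0 passed, with summed signals of 52822.9 to 126553.3 in obese and 55017.9 to 81869.4 in lean rats. Of 9 mesothelial markers 1 had a positive difference with 13 arrays and the median was -0.34. Among them Calb2 was called lower, at -0.83 ± 0.18 (SE; limma adjusted p = 0.0467), where 1.01% of all probe sets were called in either direction. With 15 arrays Calb2 did not pass (limma adjusted p = 0.142). Of 6 mast cell markers 0 had a positive difference and the median was -0.19. The part of all these cells in the members' differences was not tested.

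To see which members followed the cells of the tissue from rat to rat, each rat's deviations from its group mean were compared, over 13 rats. The deviation at a member's brightest probe set was set against that of the mean log2 value of 23 macrophage and of 12 fat cell markers. These were 14 relations, and the adjusted p covers them only. Correlations with the progenitor, endothelial and mesothelial marker means were also computed, without a test. Within the groups Cybb, at 1379344_at, followed the macrophage mean. Pearson's r was 0.897 (permutation p = 7e-05, adjusted p = 0.00098) and Spearman's rho was 0.769 (permutation p = 0.00349, adjusted p = 0.0244). Pearson's r was 0.939 in the 6 obese and 0.846 in the 7 lean rats taken alone, and 0.722 without the 2 rats farthest from the median. The dimmer Cybb probe set, 1369181_at, was not set against the marker means. Against the fat cell mean Cybb had an r of -0.721 and a rho of -0.846 (permutation p = 0.00975 and 0.00068, adjusted p = 0.0455 and 0.00952), and r was -0.702 without the 2 farthest rats. Cyba followed the macrophage mean less closely, with an r of 0.573 and a rho of 0.33 (permutation p = 0.0978 and 0.305, adjusted p = 0.22 and 0.534), and without the 2 farthest rats r was 0.042, so that relation rests on them.

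The extracellular Sod3 ran with the fat cell markers, with an r of 0.76 and a rho of 0.676 (permutation p = 0.00797 and 0.0187, adjusted p = 0.0455 and 0.0655), and an r of 0.59 without the 2 farthest rats. Catalase had 0.652 and 0.615 (adjusted p = 0.0918 and 0.111 by permutation), and Nqo1 the opposite sign, -0.649 and -0.681 (adjusted p = 0.076 and 0.0655 by permutation). Sod2 and Sod1 had r between -0.06 and 0.25 against both means (adjusted p from 0.646 to 0.883 by permutation). For Sod2 these pooled values hide opposite signs within the groups. Its r was 0.717 in obese and -0.309 in lean rats against the macrophage mean, and -0.19 and 0.736 against the fat cell mean. Signs were also opposite, in obese and lean rats, for Sod1 (0.147 and -0.337) and Nqo1 (-0.0952 and 0.484) against the macrophage mean. The same held for Cyba against the fat cell mean (0.0792 and -0.677). These contrasts were not tested. Sod3 had an r of -0.546 against the macrophage mean (adjusted p = 0.22 by permutation). Against the untested marker means, Sod1 had an r of -0.597 for progenitors, -0.43 for endothelium and 0.408 for mesothelium. All values of a rat share 1 array and its scaling.

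**Figure D3:**
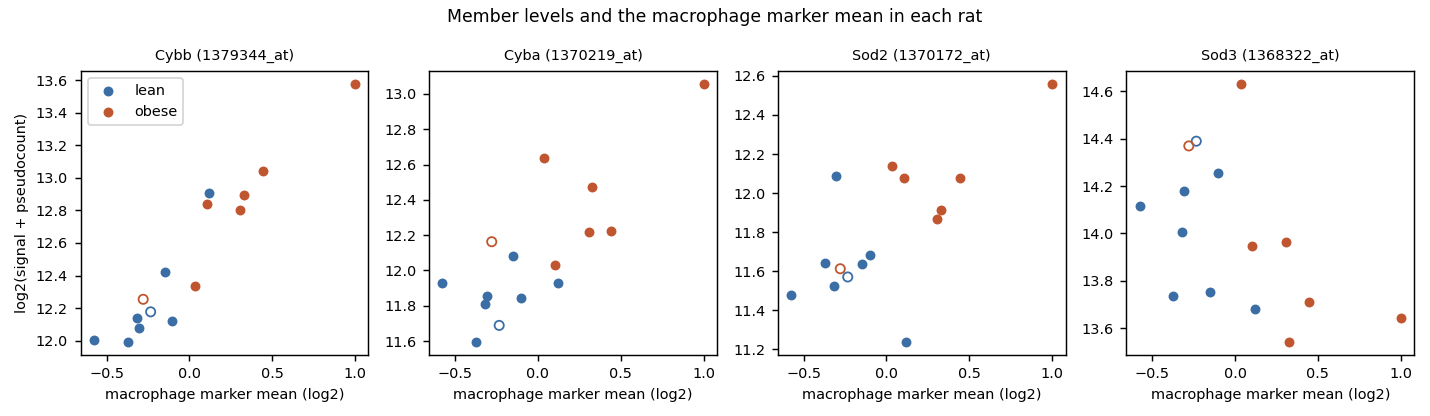
Level of Cybb, Cyba, Sod2 and Sod3 (y axis, log2(signal + 80.2)) against the mean deviation of 23 macrophage markers (x axis, log2, relative to the mean of all 15 arrays) in each rat. Blue points are lean and orange points obese rats, and open points the near-identical pair. Cybb climbs with the marker mean in both groups, with obese rat 6 at the upper right, while Sod3 slopes the other way. The r of -0.546 for Sod3 belongs to deviations from group means over 13 rats, not to the plotted values, and did not pass the test.

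The genes with the most similar pattern, by the same deviations over 13 arrays among 10507 genes, are a description with no test, as each is the best of many. For Cybb they were Sash3, an adaptor of lymphoid and myeloid cells (r = 0.942), the lysosomal protease Ctsc (0.94) and Dram1 (0.93). For Cyba they were Tyrobp, the signalling adaptor of myeloid receptors (0.886), the MHC class II chain RT1-Db1 (0.859) and Jpt1 (0.817), and for Sod2 Tgif1, Lmna and the complex I subunit Ndufa12 (0.871, 0.853 and 0.839). For Sod1 they were the mitochondrial ribosomal protein Mrpl41, the glucocorticoid-activating enzyme Hsd11b1 and Trmt112 (0.848, 0.848 and 0.829). For Sod3 they were the microtubule protein Map4, the heme transporter Slc48a1 and Tmem214 (0.957, 0.929 and 0.923). For Cat they were Pdcd4, Csad, an enzyme of taurine synthesis, and Fhod1 (0.915, 0.892 and 0.885), and for Nqo1 Rbbp6, Zbtb39 and Pds5b (0.893, 0.861 and 0.822).

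The other subunits and relatives of the oxidase had differences on both sides of 0. Of 19 listed subunits and relatives 9 were tested, 5 had positive differences with 13 arrays, 0 passed and the median was 0.01. Among the subunits that activate the phagocyte enzyme, named for their role after their values were seen, the small GTPases Rac2 and Rac1 had differences of -0.16 ± 0.18 and 0.08 ± 0.10 (SE) and Ncf4 (p40-phox) -0.09 ± 0.13 (SE; limma adjusted p = 0.681, 0.723 and 0.772). Ncf1 (p47-phox) lay below the filter, with mean signals of 169 in obese and 221 in lean rats. The smallest p of the list were those of P4hb, protein disulfide isomerase, at 0.23 ± 0.09, and Nox1, the oxidase of the colon, at -0.44 ± 0.16 (SE; limma adjusted p = 0.173 and 0.183). Whether Cybb and Cyba differed from these partners was not tested.

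Enzymes that remove peroxides, listed together with thioredoxins and other reductases, were the related list in which genes passed. Of 16 tested, 13 had positive differences, the median was 0.17 and 2 were called higher with 13 arrays, against 0.725% of all probe sets. The 16 included Txn1, Txn2, Txnrd2, Glrx and Msrb1, which are not peroxidases, and all of these were positive. The negative ones were Gpx2, Gpx3 and Gpx8. Peroxiredoxin 6 (Prdx6) rose from 5235 ± 581 (SD, n = 7) in lean to 7492 ± 975 (SD, n = 6) in obese rats, and the mitochondrial and peroxisomal Prdx5 from 10556 ± 1146 (SD, n = 7) to 15163 ± 2259 (SD, n = 6). Both had a log2 difference of 0.51 ± 0.11 (SE; limma adjusted p = 0.0421 for Prdx6 and 0.0465 for Prdx5). The call was lost in 17 of 22 alternatives for Prdx5 and in 15 of 22 for Prdx6, with adjusted p up to 0.206 and 0.195. Among these were leaving out any rat but obese rat 2 for Prdx5, and any but obese rat 3 or lean rat 2 for Prdx6. With 15 arrays 0 of the 16 passed and the median was 0.13.

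Genes of the NRF2 system, which Nqo1 reports on, went both ways. Of 17 tested, 9 had positive differences with 13 arrays, 0 passed and the median was 0.0030. Their summed signal, led by the brightest genes, ran from 71440.5 to 77734.1 in obese and from 63164.2 to 69054 in lean rats. Obese rat 1, outside the 13 arrays, had 63544.3. The mean log2 deviation of the list overlapped, at 0.0038 to 0.142 in obese and -0.0995 to 0.0277 in lean rats. Taldo1, of the pentose phosphate pathway, had 0.55 ± 0.13, and Hmox1, the heme oxygenase that macrophages use on red cell heme, had 0.86 ± 0.23 (SE; limma adjusted p = 0.0545 and 0.0835). The list of genes that supply metal to the dismutases or handle it also held the deacetylase Sirt3, at 0.06 ± 0.17 (SE). Of its 12 tested genes 7, Sirt3 included, were positive, 0 passed and the median was 0.06. The metallothionein Mt2A had 0.84 ± 0.19 and the copper chaperone Atox1 0.45 ± 0.17 (SE; limma adjusted p = 0.0545 and 0.19).

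Other enzymes that form oxidants had 5 of 15 tested members positive, a median of -0.11 and 0 calls. The smallest p belonged to the neuronal nitric oxide synthase Nos1, at -0.51 ± 0.17, and the amine oxidase Maob, at -0.26 ± 0.10 (SE; limma adjusted p = 0.145 and 0.204). Catalase works in peroxisomes. The list of genes that build them, which also held the membrane proteins Abcd2, Abcd3, Pxmp2 and Pxmp4, had 6 of 15 positive. Its median was -0.02, with 0 calls. Pex14, of the import pore, had -0.28 ± 0.09 and Pex11a, which divides peroxisomes, 0.33 ± 0.12 (SE; limma adjusted p = 0.145 and 0.184). With 15 arrays 0 genes of any of the 6 lists passed.

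**Figure D4:**
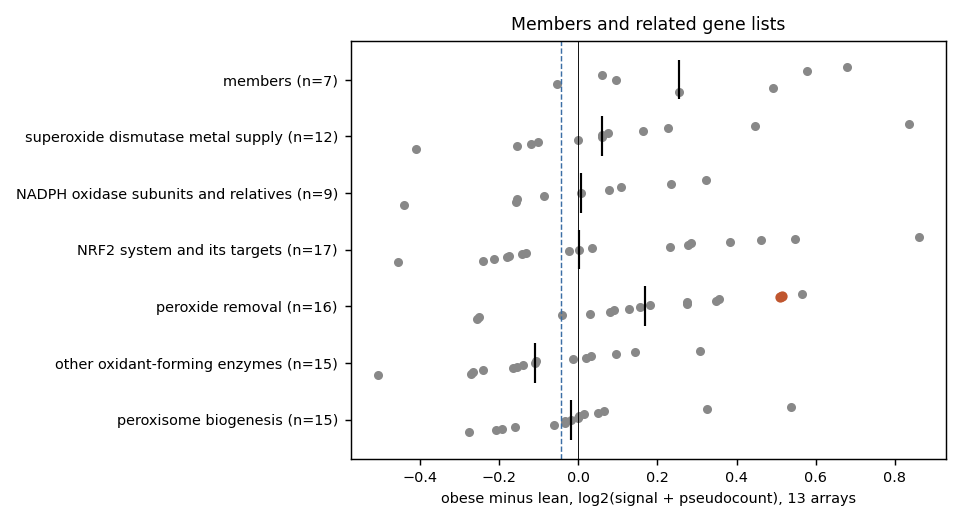
Difference between obese and lean rats over 13 arrays (x axis, log2(signal + 80.2), obese minus lean) for the leading probe sets of 7 tested members and of the genes in 6 related lists. Each point is a gene, the black bar is the median of its list, the dashed line the median of all 18625 probe sets and orange points passed the threshold of 0.05. The only orange points are Prdx5 and Prdx6.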

How the data were processed

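Each of 15 rats gave 1 array of epididymal fat RNA. The authors deposited intensity values, which the submitters' processing notes name as MAS5 signals without a version or settings. Their 2% trimmed means lay between 1500.34 and 1500.42, so the scaling was kept. MAS5 makes low signals noisy, and a common mean lets bright transcripts lower the rest. The labels' protocols give 6 micrograms of RNA per array, the design text 5.

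The analysis scale was log2(signal + 80.2), 80.2 being the 10th percentile of all signals; it understates folds of dim genes. A mean above the 40th percentile was required, which left 18625 probe sets naming 10514 genes. Obese and lean rats were compared by limma 3.58.1 (lmFit, eBayes) under R 4.3.3, two-sided, with Benjamini-Hochberg adjustment over all tested probe sets and a threshold of 0.05. Limma's 95% intervals are unadjusted. A gene's leading probe set is its brightest. The platform annotation gave 20826 probe sets 1 gene, 436 several and 9780 none, and 20758 had a current Entrez ID. Rats are the replicates, and their number limits the precision.

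The members and lists were chosen with earlier results of these data known. Named genes were all members, from each of 6 related lists up to 6 that passed or else the 2 with the smallest p, and the 3 most similar genes per member. Relations to marker means used 100000 resamples within groups. Of 12 marker lists, those of T cells, mast cells, progenitors, endothelium, smooth muscle and mesothelium had 0 of 4, 0 of 6, 1 of 8, 0 of 10, 0 of 9 and 1 of 9 tested genes called with 13 arrays, fat cells 1 of 12 and epididymal epithelium 0 of 1. Alternatives were a pseudocount of 1, other filters, median centring, quantile normalization, a replicate block, array weights, limma's trend and robust options, the Gapdh ratio, a gene's mean over probe sets and each rat left out. The fit was checked on simulated data with independent noise. Of 50 probe sets given a log2 difference of 0.5, it called 30% with 13 arrays and 38% with 15. Of 50 given a difference of 1, it called 84% and 88%. Figures used matplotlib 3.10.9 in Python 3.11.15.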

Additional observations from a re-analysis of the deposited data

Results flagged for a closer look

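Of 32 groups of member signals, 4 held a rat far from the others of its group on the log2 scale. By chance the rule marks about 1 in 20 groups. The groups with 13 arrays lie within those with 15, and 1 signal was flagged in both. The 32 groups are therefore not independent, and their count was not tested against that rate. Catalase was far higher in obese rat 3 than in the other obese rats with 15 arrays, at 29135 against 21973.2 for the next, a gap of 0.594 of the group's range. Cybb 1379344_at was far higher in lean rat 1 than in the other lean rats with 15 arrays, at 7608.3 against 5399.1 for the next, a gap of 0.534 of the range. Cybb 1369181_at was far higher in obese rat 6, at 3551.6 against 2373.7 for the next, a gap of 0.692 of the range with both 15 and 13 arrays.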

How the results depend on the processing

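The count of member probe sets called was 0 with 15 arrays and 0 with 13. With 13 arrays it was 1 with the filter at the 60th percentile, 2 with median centring, 1 with array weights and 1 with trend and robust, and from 0 to 1 when a rat was left out, as it was with 15 arrays. The calls were Cyba (limma adjusted p = 0.0398 with the filter, 0.0389 with centring and 0.0375 with trend and robust), Sod2 (0.0437 with centring), and Cybb 1379344_at (0.0457 with array weights, 0.0423 without obese rat 3 and 0.0452 without lean rat 1). Over the alternatives with 13 arrays the adjusted p ran from 0.0375 to 0.229 for Cyba, 0.0437 to 0.202 for Sod2 and 0.0423 to 0.316 for Cybb 1379344_at. Both Cybb probe sets, Cyba, Sod2 and Sod1 kept a positive difference in all alternatives run. Prdx5 and Prdx6 kept a positive difference in all. Centring moved the median of all probe sets from -0.04 to 0.07 with 13 arrays. Signs turned for Cat with quantile normalization (-0.0040 with 13 and -0.0023 with 15 arrays), for Nqo1 with 15 arrays with the Gapdh ratio (-0.015) and when a rat was left out (-0.0048 to 0.11), and for Sod3 with median centring (0.061 with 13 and 0.060 with 15 arrays), with the Gapdh ratio (0.19 and 0.18) and when a rat was left out (-0.20 to 0.018 and -0.15 to 0.029). The cause was not tested.

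Over all probe sets, 189 passed with 13 arrays. This became 124 with a pseudocount of 1, 46 with no filter, 334 with the filter at the 60th percentile, 389 with centring, 124 with quantile normalization, 309 with trend and robust, 14 with the Gapdh ratio, and 51 to 263 when a rat was left out. With 15 arrays 0 passed, against 3 with no filter, 49 with the stricter filter, 8 with trend and robust, 245 without obese rat 1, and 0 to 1 without any other rat. With the rat number as a replicate block 3 passed with 13 arrays and 0 with 15, and 0 member probe sets in either; same-numbered rats are different animals, and their deviations correlated at -0.117 to 0.229. Dim signals limit Nox4 and the second Cyba probe set.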
